A study of Mus musculus with 6 samples.

Results

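The genes described here are 10 transcription factor genes of the AP-1 and immediate early group, Fos, Fosb, Fosl1, Fosl2, Jun, Junb, Jund, Atf3, Egr1 and Maff. They were taken by name from a table of 55291 genes, and all 10 were present and passed the filter of at least 1 TPM (transcripts per 1000000) in at least 3 of the 6 libraries, which left 16506 genes to test. Levels are of polyadenylated RNA from bulk mouse liver tumour, with 3 libraries from Trem2-MKO mice (MKO_PD1) and 3 from LysM-Cre mice (Cre_PD1). All 6 tumours carry the name RIL-175/PD-1R. RIL-175 cells are a murine hepatocellular carcinoma line, and PD-1R is not explained. All hosts had been given anti-PD-1, which blocks a receptor that restrains T cells. MKO_PD1 hosts are labelled as carrying a myeloid-specific knockout of Trem2, a lipid receptor of macrophages. LysM-Cre is a Cre recombinase driven from the lysozyme M locus, which is active in macrophages, monocytes and neutrophils, so the labelled deletion concerns those host cells and not the tumour cell line. Age, sex and batch are not given in the labels, and no tumour without anti-PD-1 is part of the design.

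AP-1 is a dimer of basic leucine zipper (bZIP) proteins. Jun proteins pair with each other or with Fos proteins, while Fos proteins need a Jun partner to bind DNA. Growth factors, cytokines and stress switch on Fos, Fosb, Jun, Junb, Atf3 and Egr1 within minutes through MAP kinases, ahead of any new protein synthesis, which is what immediate early means. Fosl1 and Fosl2 respond later and stay on longer under sustained Ras and ERK signalling, and Jund is transcribed at a steadier level. Atf3 is a stress-induced bZIP repressor or activator, Maff is a small Maf protein without a transactivation domain, and Egr1 is a zinc finger factor that belongs to the immediate early genes but not to AP-1.

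The DNA before the transcription start was examined because the promoters of this group are known for binding sites of CREB/ATF, serum response factor and AP-1 itself. Of the 10 genes, 8 had windows in the RefSeq promoter table (GRCm38.p6), 10 windows of 300 bases in all, each with 250 bases before the start and 50 after it. Fosl1 and Egr1 are named only. The core of the cyclic AMP response element, TGACG, was searched on both strands and occurred in windows of 5 of the 8 genes (Fos, Fosb, Junb, Atf3 and Maff), while 20.8% of all 32851 windows held it. The complete palindrome TGACGTCA, which contains that core, occurred at a start of Maff (1.79% of windows), its variant TTACGTCA, which has the core on the other strand, before Atf3 (0.499%), and the variant TGACATCA before Jun and at another start of Maff (3.62%). A binding site of Egr1, GCGNGGGCG, was found for Fosb, Fosl2 and Maff (5.55% of windows), and TATAAA for Fos and Junb (13.6%). The AP-1 site TGACTCA, which reads TGAGTCA on the other strand, matched no window of the 8 genes against 5.20% of all windows. The CArG box of serum response factor matched none against 1.63%. Sites more than 250 bases before a start lie outside the windows, so a lack of matches does not show that a gene lacks the site. The window of Jund, 70697489 to 70697788, lies wholly before the GENCODE start of that gene at 70698949. The 120 bases before the RefSeq start of Fosl2 lie in annotated exon. A match is a stretch of letters in the window and was not linked to binding. The 120 bases that end just before a start are given below for 5 genes, in order to show the elements beside members with and without a gap between the groups in the RNA data. The matches stand in capitals. The last 7 bases shown for Atf3 lie inside an exon of a longer transcript in GENCODE, and the start of Maff shown is the middle of 3, chosen because it holds TGACGTCA.
Fos (chr12:85473770-85473889, plus strand): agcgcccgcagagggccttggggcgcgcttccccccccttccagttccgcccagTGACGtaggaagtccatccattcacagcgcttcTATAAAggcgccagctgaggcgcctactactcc
Jun (chr4:95052223-95052342, minus strand): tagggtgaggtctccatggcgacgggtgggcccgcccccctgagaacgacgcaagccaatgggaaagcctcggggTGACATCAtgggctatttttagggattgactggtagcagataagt
Atf3 (chr1:191183334-191183453, minus strand): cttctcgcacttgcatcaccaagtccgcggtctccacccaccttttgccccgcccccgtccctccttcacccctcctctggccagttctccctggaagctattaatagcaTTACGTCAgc
Junb (chr8:84978749-84978868, minus strand): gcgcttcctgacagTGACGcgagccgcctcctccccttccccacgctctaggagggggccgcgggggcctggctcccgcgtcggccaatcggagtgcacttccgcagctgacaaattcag
Maff (chr15:79347400-79347519, plus strand): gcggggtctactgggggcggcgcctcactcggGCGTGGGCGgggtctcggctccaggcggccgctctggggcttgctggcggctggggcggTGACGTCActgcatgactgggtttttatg

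The libraries differed in ways that reach most genes. Trem2, the targeted gene, was at 7.68, 17.97 and 6.81 TPM in MKO_PD1 replicates 1, 2 and 3, against 10.5, 16.5 and 14.9 TPM in Cre_PD1 replicates 1, 2 and 3, so whole-gene reads did not separate the groups and the library labelled MKO_PD1 replicate 2 was the highest of all 6 (log2 difference -0.44, limma adjusted p = 0.432, and -0.84 with 0.0450 without MKO_PD1 replicate 2). The labels do not name the deleted exons. Recovered reads per library ranged from 26747236 to 34264909, and 1 read on 1 kb of exon was worth 0.0763 to 0.114 TPM. The summed level of 20 hepatocyte markers ranged from 42521 to 168782 TPM in MKO_PD1, against 17466 to 34072 TPM in Cre_PD1. Of the 20 genes, 17 were higher without overlap, next to 10.1% of all tested genes. The sum of 8 epithelial tumour markers (keratins, claudins, Epcam and Cdh1) was 1428 to 4624 TPM in MKO_PD1 and 7509 to 13740.5 in Cre_PD1. Of the 8 genes, 3 were lower without overlap (Krt8, Krt18 and Krt19), next to 28.9% of all tested genes. These 3 keratins make up most of the sum. The other 5 overlapped, among them Epcam at 9.29 ± 9.59 against 12.9 ± 7.70 TPM. All 8 differences lay below 0, next to 72.9% of all tested genes. Sums of 10 neutrophil markers (295 to 1203 against 115 to 236 TPM) and of 8 endothelial markers (183 to 226 against 117 to 154 TPM) did not overlap between the groups. By gene, 6 of the 9 tested neutrophil markers and 4 of the 8 endothelial markers were higher without overlap, next to 10.1% of all tested genes. The neutrophil marker Ly6g was not tested, and the endothelial marker Emcn had a log2 difference of -0.30. The sums of 10 macrophage markers (3366 to 6900 against 2694 to 3620 TPM), 8 T cell markers (47.0 to 334 against 82.2 to 149 TPM) and 8 fibroblast and stellate markers (235 to 2314 against 770 to 1250 TPM) overlapped. By gene, 5 of the 10 macrophage markers (Csf1r, Adgre1, C1qc, Mertk and Msr1) were higher without overlap, next to 10.1% of all tested genes. The median log2 difference of the macrophage list was 0.58. Of the T cell markers 0 of 8, and of the fibroblast and stellate markers 1 of 8, were higher without overlap. No marker on these lists was at 0 in any library. In bulk RNA, fewer cells of a type and less RNA per cell cannot be told apart. The median log2 difference of all tested genes, MKO_PD1 minus Cre_PD1, was -0.42 on the TPM scale and -0.018 with median-of-ratios scaling, so each difference below is read against that shift. The labels number the replicates but do not say how they were collected, so p-values measure only the spread between these 6 libraries, which may be partly technical.

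The order of the 10 genes by level was the same in every library at both ends. Junb was the most abundant and Jund the next in all 6 libraries, with medians of 621 and 184 TPM, and Fosb was the least abundant in all 6 with a median of 4.03 TPM. In between came Maff at 82.7, Jun at 61.0, Fosl2 at 59.0, Egr1 at 46.4, Fosl1 at 25.7, Atf3 at 19.0 and Fos at 14.9 TPM. Some neighbours in that middle part changed places between libraries, while Atf3 was above Fos in 6 of 6. Maff was above Jun in 3 of 6 libraries, Fosl2 above Egr1 in 4 and Fosl1 above Atf3 in 3. The Maff and Fosl1 swaps followed the groups, since Maff had rank 4 or 5 in MKO_PD1 tumours, against rank 3 in every Cre_PD1 tumour, and Fosl1 had rank 9 in every MKO_PD1 tumour, against ranks 5 to 7 in Cre_PD1 tumours. Among all tested genes the median of Junb lay at percentile 98.8 and that of Fosb at percentile 25.3.

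**Figure D1:**
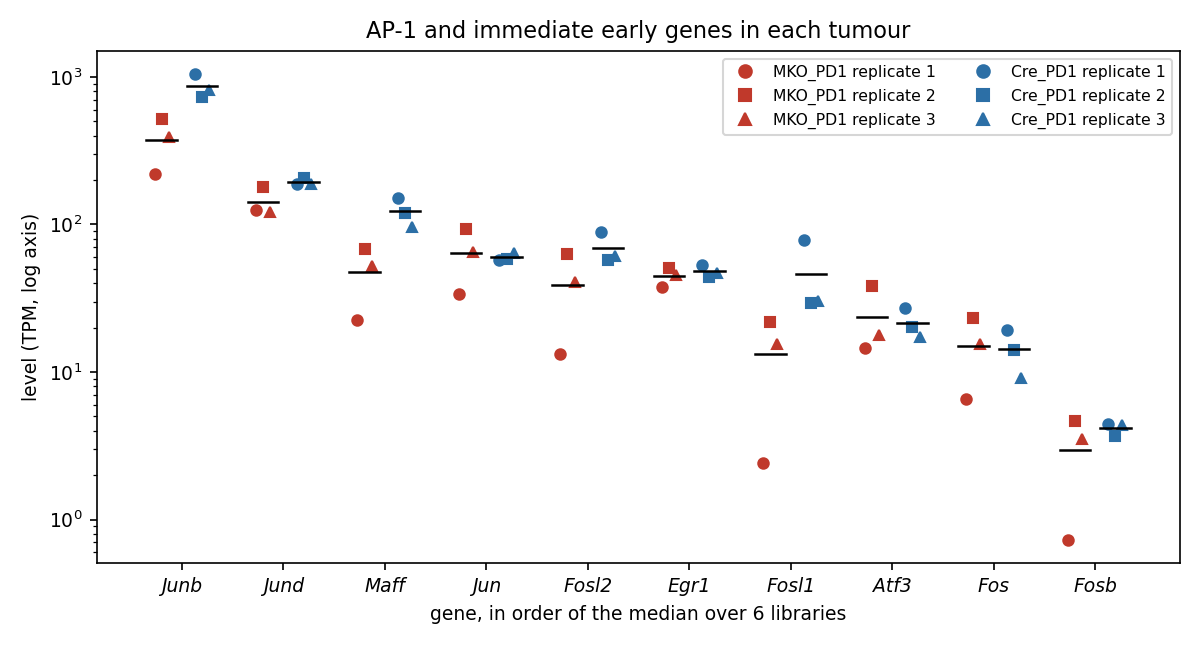
Level of each gene in TPM on a log axis, with 1 point per tumour and a bar at the mean of 3 tumours, MKO_PD1 left of Cre_PD1 for each gene. Junb, Jund, Maff and Fosl1 do not overlap between the groups, and MKO_PD1 replicate 1 is the lowest point for 9 of the 10 genes.

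Of the Jun family, Junb and Jund were lower in every MKO_PD1 tumour than in any Cre_PD1 tumour, while Jun was not. Junb (ENSMUSG00000052837.6, chromosome 8, 84974484 to 84978718 on the minus strand of GRCm38), whose product can both antagonise and replace Jun, was at 219.6, 515 and 391 TPM in MKO_PD1 replicates 1, 2 and 3, against 1044, 727 and 819.8 TPM in Cre_PD1. The means were 375 ± 148 and 864 ± 163 TPM (SD, n = 3 each), a ratio of 0.434. Every MKO_PD1 value lay below the lowest Cre_PD1 value, and MKO_PD1 replicate 1 was the farthest from it. With a log2 difference of -1.27 (SE 0.37), Junb missed the threshold of 0.05 after adjustment over all tested genes (limma adjusted p = 0.168). Junb had 5210 to 19210 reads per library if its counted length was 1809 bases, a length inferred from the values that differs from its 2301 exon bases in GENCODE M21. Of the annotated bases, 173 also lie in exons of Prdx2 on the other strand, a peroxide-reducing enzyme gene that was at 116 to 235 TPM in MKO_PD1, against 308 to 345 TPM in Cre_PD1. How reads in such overlaps were assigned is not given in the sources used here.

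Jund (ENSMUSG00000071076.6, chromosome 8, 70698949 to 70700616, plus strand), the steadily transcribed Jun gene, was at 124, 180.3 and 122 TPM in MKO_PD1, against 187, 205 and 188 TPM in Cre_PD1. The groups did not overlap but came close, at 180.3 and 187 TPM. Its log2 difference of -0.47 (SE 0.26; limma adjusted p = 0.233) was about the median of all genes, and it became 0.011 with median-of-ratios scaling. Exons of Gm11175 on the other strand cover 877 of the 1668 exon bases of Jund, and that gene is listed at 0 in all 6 libraries, so the Jund level is uncertain in the same way. Jun (ENSMUSG00000052684.4, chromosome 4, 95049034 to 95052222, minus strand) encodes a partner of Fos proteins. Its level was 33.5, 92.8 and 65.2 TPM in MKO_PD1, against 57.6, 58.5 and 63.5 TPM in Cre_PD1. The MKO_PD1 tumours held both the lowest and the highest value, with a coefficient of variation of 46.4% against 5.31% between Cre_PD1 tumours. The log2 difference was -0.023 (SE 0.37; limma adjusted p = 0.965), and 0.45 with median-of-ratios scaling, where the adjusted p was 0.136. The antisense gene Junos shares 232 exon bases with Jun and was at 1.63, 7.44 and 2.43 TPM in MKO_PD1, against 1.58 to 2.22 TPM in Cre_PD1.

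In the Fos family, Fosl1 did not overlap between the groups and the other members did. Fosl1 (ENSMUSG00000024912.6, chromosome 19, 5447547 to 5455946, plus strand) encodes Fra-1, the Fos protein known for its rise under oncogenic Ras signalling and in invasive carcinoma cells. Its level was 2.40, 21.9 and 15.5 TPM in MKO_PD1, against 78.8, 29.5 and 30.1 TPM in Cre_PD1. This was the widest spread of the 10 genes, 32.8-fold between the extreme libraries, with 64 reads in MKO_PD1 replicate 1 and 1628 in Cre_PD1 replicate 1. The log2 difference was -1.96 (SE 0.72; limma adjusted p = 0.168), and it was -1.12 without MKO_PD1 replicate 1. Exons of Ccdc85b on the other strand cover 1163 of the 2033 exon bases of Fosl1, and that gene was at 16.7 to 35.4 TPM in MKO_PD1, against 39.5 to 56.4 TPM in Cre_PD1, so the Fosl1 level is uncertain to the extent that reads there were dropped or shared.

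Fosl2 (ENSMUSG00000029135.10, chromosome 5, 32135801 to 32157842, plus strand), which encodes Fra-2, was at 13.3, 63.4 and 40.7 TPM in MKO_PD1, against 88.7, 57.1 and 61.0 TPM in Cre_PD1. MKO_PD1 replicate 2 lay inside the range of the Cre_PD1 tumours and the other MKO_PD1 tumours lay below it. The log2 difference was -1.02 (SE 0.52; limma adjusted p = 0.212), and it was -0.41 without MKO_PD1 replicate 1. Fos (ENSMUSG00000021250.13, chromosome 12, 85473890 to 85477273, plus strand), the classical immediate early gene, was at 6.58, 23.1 and 15.6 TPM in MKO_PD1, against 19.4, 14.2 and 9.17 TPM in Cre_PD1. The tumours with the highest and the lowest Fos were both MKO_PD1, and the log2 difference was -0.019 (SE 0.47; limma adjusted p = 0.977). Fosb (ENSMUSG00000003545.3, chromosome 7, 19302696 to 19310051, minus strand) was at 0.733, 4.63 and 3.54 TPM in MKO_PD1, against 4.47, 3.68 and 4.39 TPM in Cre_PD1. Only MKO_PD1 replicate 1, with 60 Fosb reads, stood clearly apart from the other libraries, which had 234 to 289 (log2 difference -0.55, SE 0.46; limma adjusted p = 0.398), and without it the difference was -0.031.

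Maff (ENSMUSG00000042622.14, chromosome 15, 79346621 to 79359076, plus strand), the small Maf gene that is inducible by stress and cytokines, was at 22.3, 68.6 and 51.9 TPM in MKO_PD1, against 151, 119.8 and 96.7 TPM in Cre_PD1. All MKO_PD1 tumours were below all Cre_PD1 tumours, at a ratio of means of 0.389. The log2 difference was -1.46 (SE 0.42; limma adjusted p = 0.168). Atf3 (ENSMUSG00000026628.13, chromosome 1, 191170296 to 191218039, minus strand), a gene of the integrated stress response, was at 14.5, 38.4 and 17.8 TPM in MKO_PD1, against 27.3, 20.1 and 17.3 TPM in Cre_PD1. As for Fos and Jun, MKO_PD1 held the highest and the lowest tumour (log2 difference 0.022, SE 0.39; limma adjusted p = 0.969). Egr1 (ENSMUSG00000038418.7, chromosome 18, 34859823 to 34864984, plus strand) varied least, 1.41-fold over all 6 libraries, at 37.7, 50.5 and 45.5 TPM in MKO_PD1, against 53.2, 44.1 and 47.2 TPM in Cre_PD1. Its log2 difference was -0.12 (SE 0.24; limma adjusted p = 0.734).

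Counted together, 0 of the 10 genes passed the adjusted threshold of 0.05 in limma, where 0.0121% of all tested genes did (0.00606% lower), and 0 of the 9 with recovered reads in the fit passed with limma voom, where Fosl1 and Maff were lower and Jun higher at an unadjusted p under 0.05, next to 29.7% of all genes in that fit. An unadjusted p under 0.05 was seen for Fosl1, Junb and Maff, 3 of 10 and all lower in MKO_PD1, next to 27.9% of all genes in either direction and 19.5% lower. The difference lay below 0 for 9 of the 10 genes and 72.9% of all genes, and with median-of-ratios scaling for 5 of the 10 and 51.4%. The groups did not overlap, with MKO_PD1 lower, for 4 of 10 genes (Fosl1, Junb, Jund and Maff), next to 28.9% of all genes, and 0 of 10 were higher without overlap, next to 10.1%. These shares are near those of the whole table. Leaving out MKO_PD1 replicate 2 made 5 of the 10 genes pass, all lower in MKO_PD1 (Fosl1, Fosl2, Junb, Jund and Maff, limma adjusted p from 0.0290 to 0.0402), while 45.9% of all genes passed, 38.0% lower and 7.88% higher. MKO_PD1 replicate 1 was the lowest library for 9 of the 10 genes and for 70.7% of all tested genes. MKO_PD1 replicate 2 was the highest for Fos, Fosb, Jun and Atf3, next to 23.3% of all tested genes. Cre_PD1 replicate 1 was the highest for Fosl1, Fosl2, Junb, Egr1 and Maff, next to 28.3%. The median log2 difference of the 10 genes was -0.51 against -0.42 for all genes, and -0.12 against -0.018 with median-of-ratios scaling. Under that scaling Junb was at -0.79, Maff at -0.99 and Fosl1 at -1.55, while Fos (0.41), Jun, Atf3 (0.48) and Egr1 (0.35) were above 0.

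**Figure D2:**
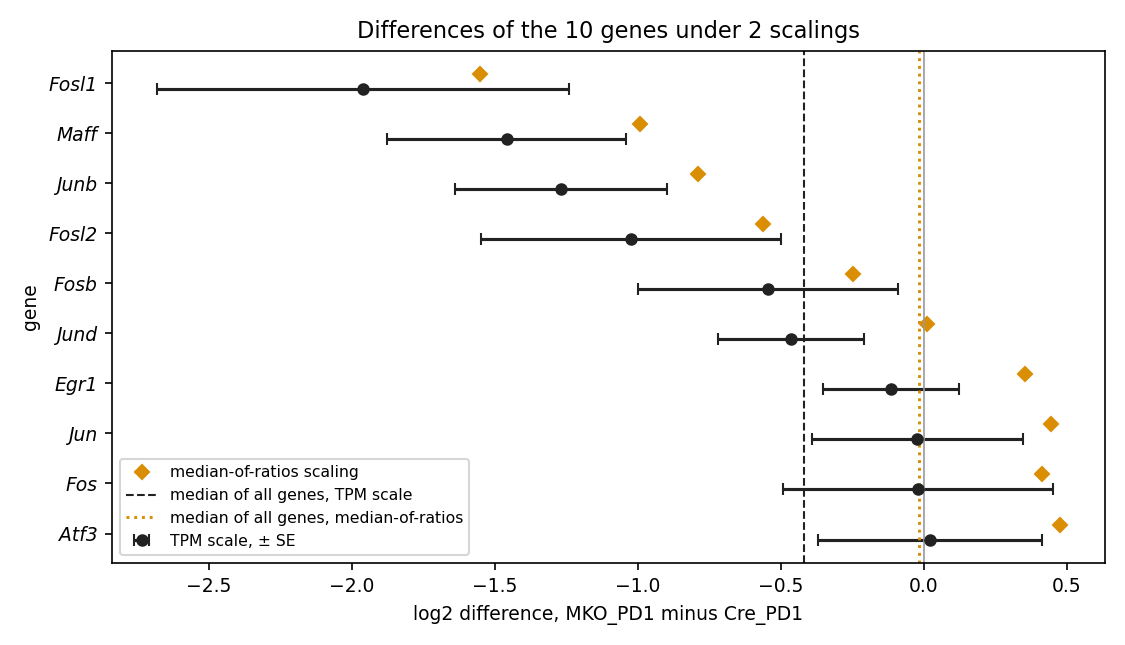
Log2 difference of each gene, MKO_PD1 minus Cre_PD1, on the TPM scale with its standard error (black circles) and with median-of-ratios scaling (orange diamonds); vertical lines mark 0 and the median of all tested genes under each scaling. Fosl1, Maff, Junb, Fosl2 and Fosb lie below the median of all genes under both scalings, and Egr1, Jun, Fos and Atf3 lie above it under both.

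The make-up of each family within a tumour does not depend on a scaling by 1 factor per library. Fos made up 28.6, 20.4 and 20.7% of the summed TPM of the 4 Fos family genes in MKO_PD1 tumours, against 10.1, 13.6 and 8.76% in Cre_PD1 tumours. Fosl1 made up 10.4, 19.4 and 20.6% in MKO_PD1, against 41.2, 28.3 and 28.8% in Cre_PD1. Neither share overlapped between the groups, whereas the shares of Fosl2 (56.0 ± 1.90% against 53.1 ± 6.10%) and Fosb (3.996 ± 0.765% against 3.35 ± 0.938%) did. In the Jun family, Jun made up 8.89, 11.8 and 11.3% in MKO_PD1, against 4.47, 5.90 and 5.93% in Cre_PD1, and Junb 63.7 ± 4.95% against 77.0 ± 3.84%. Both were without overlap, as was Jund at 25.6 ± 6.40% against 17.6 ± 3.11%, where the closest tumours were at 21.03 and 20.72%. The family totals were 23.0, 113 and 75.4 TPM for Fos genes in MKO_PD1, against 191, 104 and 105 TPM in Cre_PD1, and 377, 788 and 578 TPM for Jun genes in MKO_PD1, against 1289, 991 and 1071 TPM in Cre_PD1. Shares within a family sum to the whole, so a lower share of 1 gene raises those of the others. By level, 28.9% of all tested genes were lower and 10.1% higher without overlap. No such count over all genes was made for shares.

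**Figure D3:**
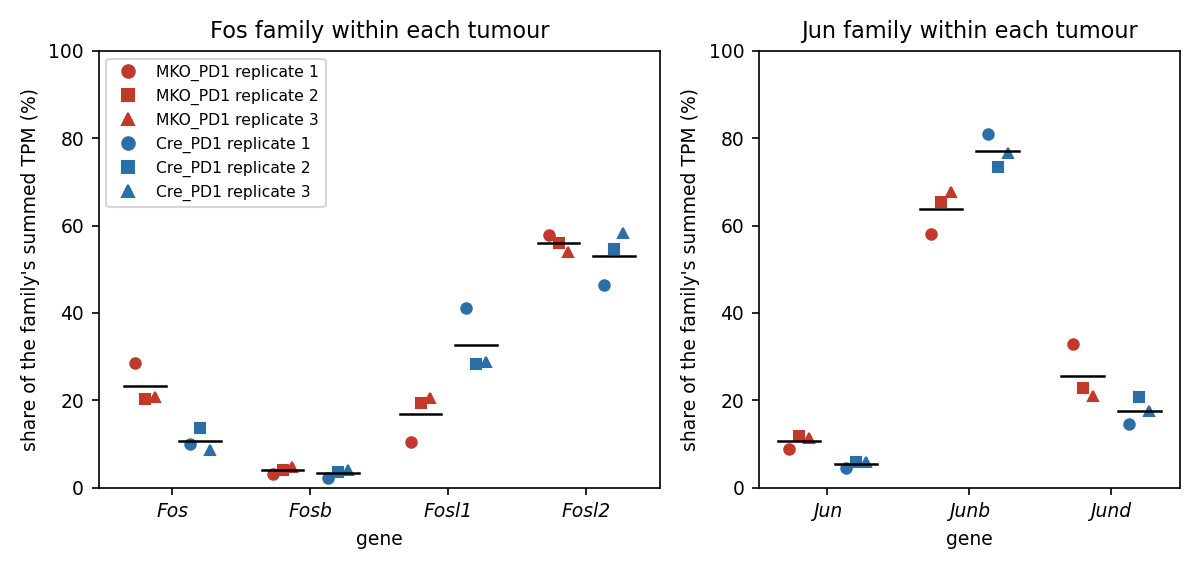
Share of the summed TPM of the 4 Fos family genes (left) and the 3 Jun family genes (right) that each gene makes up, in %, with 1 point per tumour, bars at group means and MKO_PD1 left of Cre_PD1. The shares of Fos and Jun are higher and those of Fosl1 and Junb lower in every MKO_PD1 tumour than in any Cre_PD1 tumour.

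Ratios to Jund in the same library gave a second view, which no scaling by 1 factor per library can move. Ratios without overlap between the groups were not counted over all genes. The log2 ratio of Junb to Jund was 0.82, 1.51 and 1.69 in MKO_PD1, against 2.48, 1.82 and 2.13 in Cre_PD1. That of Maff was -2.48, -1.39 and -1.23 in MKO_PD1, against -0.31, -0.78 and -0.96 in Cre_PD1. For these genes and Fosl1 (-3.90 ± 1.55 against -2.23 ± 0.85) the groups did not overlap, and the differences were -0.80 for Junb, -1.02 for Maff and -1.67 for Fosl1. The exact two-sided permutation test gave p = 0.1 for each, the smallest that 20 splits of 6 libraries allow, and 0.3 after Benjamini-Hochberg adjustment over the 9 ratios. The ratios of Fos, Jun, Atf3 and Egr1 were higher in MKO_PD1 by 0.44, 0.44, 0.49 and 0.35 with overlapping groups (exact permutation p = 0.2 to 0.5), and those of Fosb and Fosl2 were at -0.39 and -0.59, also with overlap (exact permutation p = 1.0 and 0.6).

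The other genes of the pathway are given as counts over lists of known partners, regulators and targets. Of 8 further bZIP partners, 0 passed the adjusted threshold in limma, and 1 was lower and 0 higher at an unadjusted p under 0.05 (19.5% and 8.47% of all genes). Atf2, whose product pairs with Jun on the CRE, was at 16.7 ± 6.36 TPM in MKO_PD1 and 28.6 ± 3.94 TPM in Cre_PD1. Batf3, the partner needed for cross-presenting dendritic cells, was higher without overlap, at 12.6 ± 1.74 TPM in MKO_PD1 and 8.55 ± 1.12 TPM in Cre_PD1. Atf7 was at 11.9 ± 5.09 and 17.97 ± 4.96 TPM and Mafg, a small Maf gene like Maff, at 59.8 ± 19.8 TPM in MKO_PD1 and 81.1 ± 8.24 TPM in Cre_PD1. Of 23 other immediate early genes, 0 passed and 3 were lower at an unadjusted p under 0.05. These were Rhob, a small GTPase gene, at 213 ± 63.0 TPM in MKO_PD1 and 439 ± 94.3 TPM in Cre_PD1, Ier2 at 96.1 ± 25.8 TPM and 159 ± 12.6 TPM, and Ier5 at 41.2 ± 21.9 TPM and 79.1 ± 7.46 TPM. Klf10, induced by TGF-beta, was at 40.0 ± 14.4 TPM in MKO_PD1 and 62.1 ± 8.37 TPM in Cre_PD1. The median difference of this list, -0.57, lay close to that of all genes.

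Genes upstream of AP-1 and genes that restrain MAP kinases were also counted. Of 16 upstream kinase and transcription factor genes, 0 passed and 4 were lower at an unadjusted p under 0.05 (19.5% of all genes). Without overlap, 7 were lower (28.9% of all genes). Map2k1, which encodes the ERK kinase MEK1, was at 126 ± 69.4 TPM in MKO_PD1 and 260.0 ± 22.05 TPM in Cre_PD1. Mapk3, which encodes ERK1, was at 119.6 ± 47.3 TPM in MKO_PD1 and 209 ± 12.6 TPM in Cre_PD1. Elk1, an ERK target that acts on the Fos promoter, was at 8.49 ± 3.46 TPM in MKO_PD1 and 15.4 ± 2.86 TPM in Cre_PD1. Of 11 feedback inhibitors, phosphatases of the Dusp family and Sprouty and Spred proteins, 0 passed the adjusted threshold. At an unadjusted p under 0.05, 7 were lower (19.5% of all genes), and 7 were lower without overlap (28.9% of all genes). Dusp5 was at 61.9 ± 33.9 TPM in MKO_PD1 and 197 ± 69.6 TPM in Cre_PD1, Spred2 at 30.3 ± 18.7 TPM and 84.9 ± 28.3 TPM, Dusp10 at 25.8 ± 14.6 TPM and 60.5 ± 5.40 TPM, and Spry4 at 7.34 ± 3.42 TPM and 24.8 ± 15.3 TPM. The median log2 difference of this list was -1.38, or -0.93 with median-of-ratios scaling. Epithelial tumour markers, whose median was -1.004, or -0.64 with that scaling, differed in the same direction, and their part in this list's result was not tested.

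Of 14 genes known as AP-1 targets, 0 passed, 5 were lower at an unadjusted p under 0.05 (19.5% of all genes) and 4 were lower without overlap, a share near the 28.9% of all genes, with a median log2 difference of -1.04 and of -0.68 with median-of-ratios scaling. Hbegf, an EGF receptor ligand, was at 28.4 ± 16.4 TPM in MKO_PD1 and 63.4 ± 2.35 TPM in Cre_PD1, and the adhesion receptor Cd44 at 101 ± 62.3 TPM and 219 ± 29.5 TPM. The stromelysin gene Mmp3 was at 2.34 ± 1.64 TPM in MKO_PD1 and 5.97 ± 2.31 TPM in Cre_PD1. Without MKO_PD1 replicate 2 the adjusted threshold was passed, lower in MKO_PD1, by 4 of 8 bZIP partners, 9 of 23 other immediate early genes, 10 of 16 upstream genes, 9 of 11 feedback inhibitors and 8 of 14 targets, next to the 38.0% of all genes. Adjusting the fit for the mean of the epithelial tumour markers left Junb at -0.61, Maff at -0.62 and Fosl1 at -0.53, with limma adjusted p from 0.524 to 0.828. Adjusting for the mean of the hepatocyte markers left Junb at -0.38 and Maff at -0.41 and put Fosl1 at 0.20 (limma adjusted p = 0.9998 for each). The summed levels of both lists separate the groups, but the sums were not the covariates. The covariates were means of log2(TPM + 1) over each list, in which every gene has the same weight. Of the 8 epithelial genes, 5 overlapped between the groups, so the separation of the sums does not carry over to that covariate. Group and hepatocyte level cannot be told apart, and how far group and epithelial level can be was not tested.

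**Figure D4:**
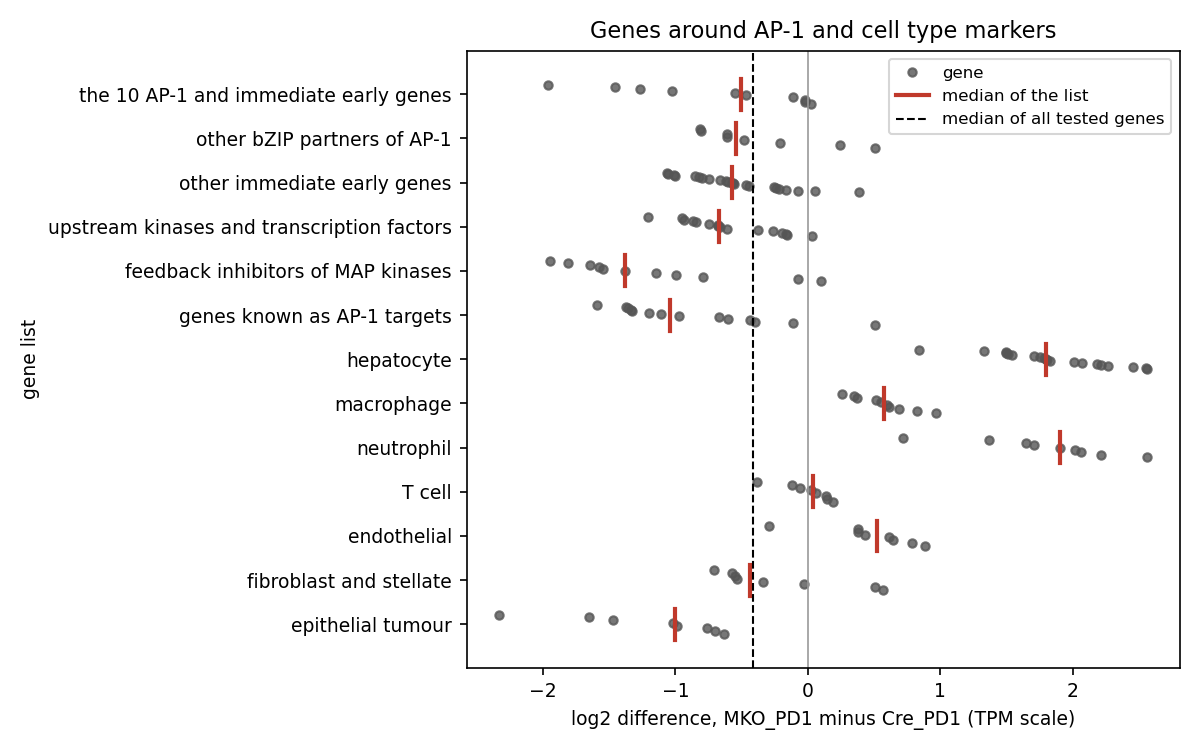
Log2 difference, MKO_PD1 minus Cre_PD1 on the TPM scale, of each tested gene (dots) and the median (red bars) of the 10 genes, of 5 lists of pathway genes and of 7 lists of cell type markers, with the median of all tested genes as a dashed line. The lists of feedback inhibitors, AP-1 targets and epithelial tumour markers have medians near or below -1, and hepatocyte and neutrophil markers lie highest.

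Among the 10 genes the profiles of Junb and Maff over the 6 libraries were the closest pair, with a root-mean-square difference of centred log2 levels of 0.205. Jund and Egr1 (0.244) and Fos and Atf3 (0.280) came next, and Fosl1 and Egr1 (1.24) were the most distant pair. Over 10808 protein-coding genes with a mean of at least 5 TPM, the nearest profiles to Fos were those of the clock gene Per1 (0.121), Mest (0.152) and Nfil3 (0.156), a bZIP repressor. Per1 was at 16.8, 52.4 and 35.2 TPM in MKO_PD1, against 55.8, 34.3 and 21.3 TPM in Cre_PD1. The nearest to Jun were the cytokine gene Il15 (0.0597), Osbpl8 (0.0690) and Sorbs2 (0.0826), and the nearest to Egr1 were Fam122a (0.0306) and Pi4k2a (0.0383). With 6 libraries, such likeness describes these tumours and carries no test.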

How the data were processed

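Polyadenylated RNA of 6 tumours was sequenced. The submitters' processing notes name STAR 2.7.10a, Subread and featureCounts 2.0.3 and the build mm10. The authors deposited 1 table named as TPM, whose values are a length-normalised read signal: the deposited columns have unequal sums (70363 to 105281) and share a constant of 8.03. Value times exon length (GENCODE M21, GRCm38) over that constant was a whole read number, within 0.001, for 29352 of 29798 genes (98.5%). The shortest length that made Junb whole was 1809 bases, other than its GENCODE M21 length, so its read number is not fixed and it was left out of the voom fit. The design had assumed TPM, so each column was rescaled to a total of 1000000.

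The comparison of the groups used limma 3.58.1 (R 4.3.3) on log2(TPM + 1) with a trended prior variance and no covariate. Adjusted p-values are Benjamini-Hochberg values over all 16506 tested genes. SE is limma's moderated standard error. Ratios to Jund were tested in Python 3.11.15 with scipy 1.17.1. The members and gene lists were chosen with earlier results of these data known. Besides all members, up to 4 genes of each pathway list were named by smallest p, and 3 most alike genes for Fos, Jun and Egr1. Some genes that this rule names are not reported here. Cyr61 and Ctgf are Ccn1 and Ccn2 in the table. The fit was tested on simulated counts, where false calls were more frequent than the nominal rate. Reads carried no molecular identifiers.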

Additional observations from a re-analysis of the deposited data

How the results depend on the processing

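The count of genes past the adjusted threshold was 2 in limma and 4612 at an unadjusted p under 0.05. It was 0 with no filter, with at least 5 TPM, with the replicate block, with voom on recovered reads, without MKO_PD1 replicates 1 and 3, and with either the hepatocyte or the epithelial mean as a covariate. It was 1 with median-of-ratios or quantile scaling, and 12056 with array weights, whose estimation did not converge. Leaving out 1 library gave 0 to 7314 genes and 0 to 5 members, the highest without MKO_PD1 replicate 2. Members past the threshold were 0 in the other fits except array weights, with 5. Same-numbered libraries of the groups did not deviate together (correlations of -0.42, -0.265 and 0.049). A pairing with an effect smaller than the differences between tumours would not show in these values, and the labels name none. The replicate block left 0 members called.

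Junb stayed below 0 in 22 alternatives (-1.54 to -0.38) and Maff in 23 (-1.79 to -0.41). The other genes crossed 0 in some, and the cause was not tested. With median-of-ratios scaling Fos was at 0.41, Jun at 0.45, Jund at 0.011 and Egr1 at 0.35. With quantile scaling Fos was at 0.37, Jun at 0.38 and Egr1 at 0.28. Without hepatocyte genes in the total they were at 0.098, 0.10 and 0.012, and with values as deposited at 0.087, 0.098 and 0.0063. With array weights Fos was at 0.22, Jun at 0.12 and Atf3 at -0.20. With voom Fos was at 0.49, Jun at 0.47, Jund at 0.042 and Egr1 at 0.39. With the hepatocyte covariate Fos was at 1.25, Fosb at 0.31, Fosl1 at 0.20, Fosl2 at 0.40, Jun at 0.63 and Egr1 at 0.23. With the epithelial covariate Fos was at 0.85, Fosb at 0.40, Fosl2 at 0.16, Jun at 0.80 and Egr1 at 0.10. Without MKO_PD1 replicates 1 and 3 Fos was at 0.71, Fosb at 0.12, Jun at 0.62 and Egr1 at 0.071. Leaving out each library in turn gave -0.39 to 0.45 for Fos, -0.35 to 0.37 for Jun and -0.38 to 0.29 for Atf3, and -0.81 to 0.34 for the ratio of Fosb to Jund. Values as deposited, voom, the covariates and the fit without MKO_PD1 replicates 1 and 3 were added after the data had been seen. Read depth limits Fosb and Fosl1 most, with 60 and 64 reads in MKO_PD1 replicate 1.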
